A study of Mus musculus with 59 samples.

Results

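The interleukin 1 and 36 family was followed in mouse uterus through 10 genes: the ligands Il1a, Il1b, Il18, Il33, Il36a, Il36b and Il36g, the receptor antagonist Il1rn, and the receptors Il1r1 and Il1r2. They were chosen by gene symbol, as 10 of the 21706 genes in the deposited tables. The rule used no measured value, though earlier results of these data were known when it was set. RNA was sequenced from 59 pieces of uterine tissue of 29 mated females aged about 2 to 6 months. Control females (Esr1f/-) carried 1 floxed and 1 null allele of Esr1, the gene of oestrogen receptor alpha. Knockout females (epiERα-/-, Esr1f/-Wnt7aCre/+) carried the same alleles plus Wnt7aCre, a recombinase driver active in the epithelium of the uterus, so stroma and muscle of both genotypes kept 1 working allele. Every female had been mated, to a wild-type male (Esr1f/f or C57BL/6), and uteri were collected either on D0.5, when the plug was found, or on D3.5. Each mouse could give luminal epithelium scraped from uterus after 30 min in 0.5% dispase (LE), an undigested piece of uterus (U) and a piece of the digested uterus (DU). The control and knockout groups held 9 and 7 LE libraries at D0.5 and 4 and 6 at D3.5. For U they held 6 and 4 at D0.5 and 5 and 5 at D3.5, and for DU 4 and 3 at D0.5 and 3 and 3 at D3.5. Levels are given in CPM, that is, counts scaled to library size after TMM normalization within a tissue. All 10 genes passed the filter on low counts in each tissue. In LE the D0.5 libraries alone were enough for Il1a, Il1b, Il1rn, Il1r2, Il36a and Il36g, whose LE means at D3.5 were below 2 CPM.

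Interleukin 1 alpha and beta are alarm cytokines that bind the receptor Il1r1 together with the accessory chain Il1rap, and signal through Myd88 to NF-kB. Il1rn occupies the receptor without signalling, and Il1r2 is a decoy that binds ligand and cannot signal. The interleukin 36 cytokines are made mainly by epithelia and bind a receptor of their own, Il1rl2, with the same accessory chain, while Il18 and Il33 use the receptors Il18r1 and Il1rl1. In the uterus, mating brings a wave of neutrophils and cytokines that fades before implantation, and oestrogen and progesterone shape it.

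Of the 10 genes, 6 lie on chromosome 2. In the RefSeq gene order Il36b, Il36g and Il36a follow each other directly there, Il1rn lies a few genes farther on, and Il1a and Il1b are neighbours. Il1r2 and Il1r1 are neighbours on chromosome 1, next to Il1rl2. The start regions of 2 neighbouring pairs whose members behaved differently in the knockout are shown from the RefSeq promoter table (250 bases before to 50 after the start, build GRCm38.p6), which held 9 of the 10 genes and lists Il36b as Il1f8 and Il36g as Il1f9. Il36a was not matched. Capitals mark matches on either strand to the core of an oestrogen response element (GGTCA), to AP-1 (TGANTCA) or to a TATA box (TATAAA).

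Il1a, chr2:129309923-129310222, minus strand: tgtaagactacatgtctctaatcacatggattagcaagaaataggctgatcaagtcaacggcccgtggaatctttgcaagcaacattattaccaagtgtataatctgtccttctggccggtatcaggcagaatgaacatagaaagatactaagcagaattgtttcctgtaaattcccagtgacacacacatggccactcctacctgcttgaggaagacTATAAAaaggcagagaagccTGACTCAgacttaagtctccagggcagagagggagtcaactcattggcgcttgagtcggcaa

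Il1b, chr2:129371090-129371389, minus strand: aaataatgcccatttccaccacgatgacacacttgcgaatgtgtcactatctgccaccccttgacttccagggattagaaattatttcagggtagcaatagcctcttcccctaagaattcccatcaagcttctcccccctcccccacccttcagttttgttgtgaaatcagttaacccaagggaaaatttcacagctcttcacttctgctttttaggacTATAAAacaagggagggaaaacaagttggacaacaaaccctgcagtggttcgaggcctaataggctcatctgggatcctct

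Il36b, chr2:24152922-24153221, plus strand: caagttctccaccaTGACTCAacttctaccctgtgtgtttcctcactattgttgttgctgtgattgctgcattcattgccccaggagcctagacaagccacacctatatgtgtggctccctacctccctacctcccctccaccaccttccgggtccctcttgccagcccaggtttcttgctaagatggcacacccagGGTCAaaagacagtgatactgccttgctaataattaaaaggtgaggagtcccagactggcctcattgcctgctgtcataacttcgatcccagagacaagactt

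Il36g, chr2:24186226-24186525, plus strand: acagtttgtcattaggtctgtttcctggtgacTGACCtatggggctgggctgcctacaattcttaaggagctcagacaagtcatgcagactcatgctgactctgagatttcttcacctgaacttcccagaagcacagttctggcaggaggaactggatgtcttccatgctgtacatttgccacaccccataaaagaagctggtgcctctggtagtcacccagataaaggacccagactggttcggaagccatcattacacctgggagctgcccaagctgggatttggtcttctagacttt

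Each position is that of the match's first base relative to the start. The Il36b region held an element core at -53 and an AP-1 match at -236, and the Il36g region held an element core at -218. Il1a had a TATA box at -32 and an AP-1 match at -12, and Il1b a TATA box at -31. None of these 4 regions held the full element, a palindrome of that core, or an NF-kB match. Among all 32851 promoter windows of that length, 40.5% held the element core, 7.81% AP-1, 13.6% TATAAA, 8.46% NF-kB and 0.07% the palindrome, so an element core is common and these matches are descriptions only. An element core lies inside every palindrome, so those matches overlap.

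Library totals lay between 11.3 M and 108 M estimated counts, with medians of 19.3 M in LE, 20.6 M in U and 19.5 M in DU. Esr1 stood at 24.7% of the control mean in LE at D0.5 and 46.9% at D3.5 (two-sided exact permutation tests of log2 CPM, p = 8.7e-05 and 0.0048). It stood at 62.6% and 88.0% in U and at 63.3% and 75.5% in DU. Esr1 of the library labelled knockout 33, from U at D3.5, was 212 CPM and exceeded the 5 controls (135 to 195 CPM). Part of the D3.5 genotype results on that group is therefore also given without it. Its ranges, ratios and comparisons between days include that library. Summed markers of stromal fibroblasts were lower in LE than in U (509 to 5742 against 10403 to 23576 CPM), and those of simple epithelium were higher at D3.5 (3393 to 5815 in LE against 428 to 934 in U). Tissue and RNA isolation batch cannot be told apart.

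At D0.5 the knockout changed the family in LE in both directions. Il1b, Il1rn and Il1r2 were higher, Il1a, Il1r1 and Il36b were lower, and Il18, Il33, Il36a and Il36g did not pass the test (edgeR quasi-likelihood test, adjusted p under 0.05). Those 6 of 10 genes compare with 23.6% of all 15601 genes tested in LE, 10.9% higher and 12.6% lower. The median log2 fold change of the 10 genes was 0.48, against -0.01 over all genes tested. Libraries of the 2 genotypes did not overlap for Il1r1, Il1r2 and Il36b, which was so for 6.28% of all genes. As these are tissue samples, fewer cells of a type and less RNA per cell cannot be told apart in any of these differences.

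**Figure D1:**
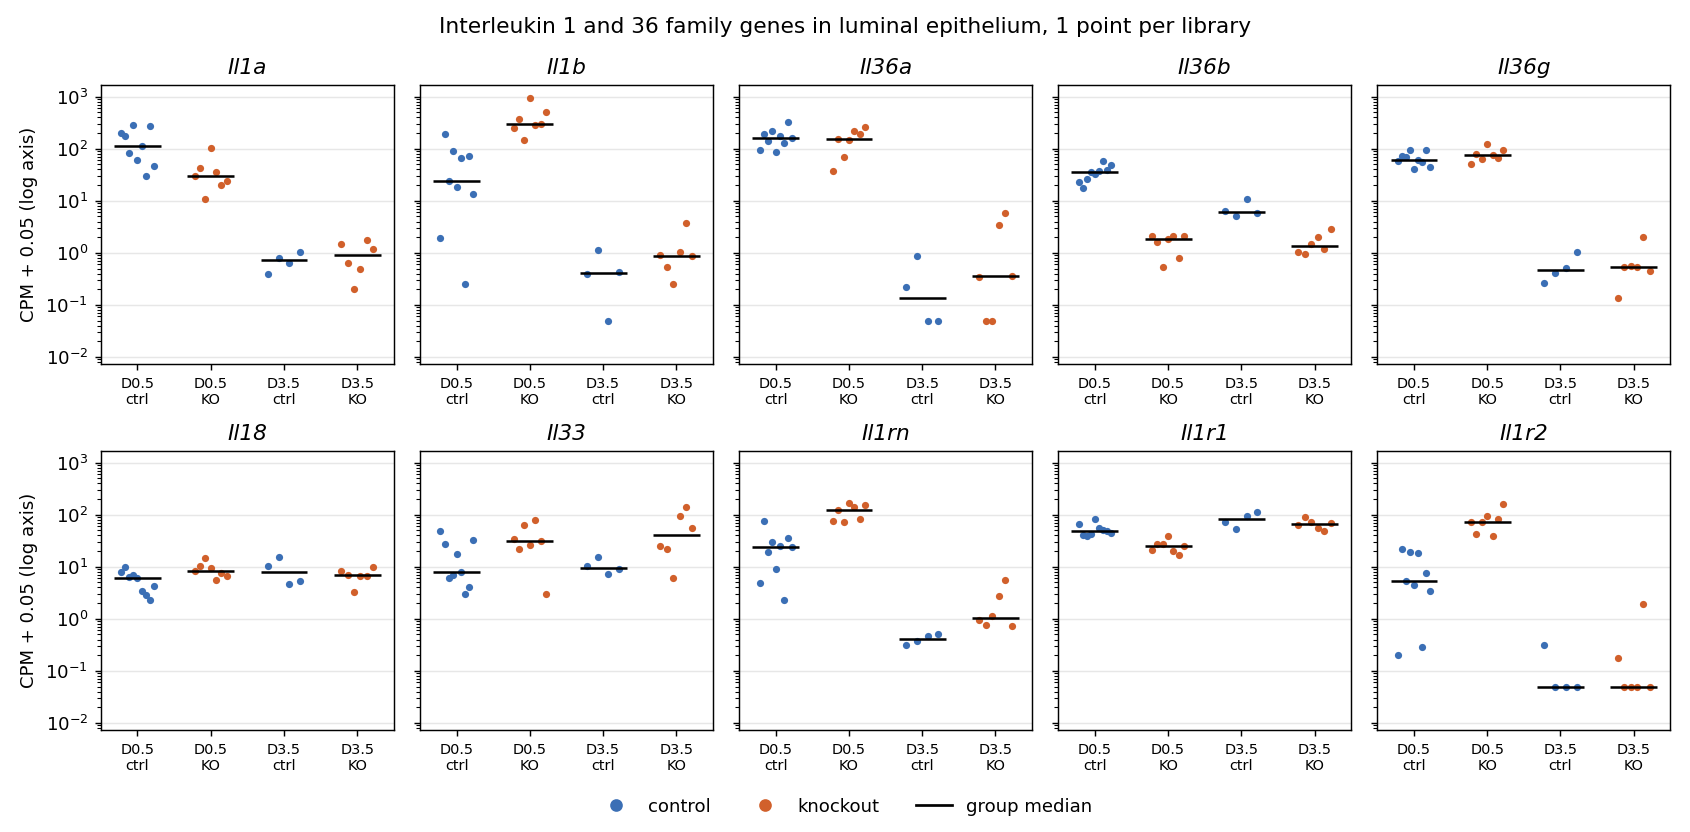
CPM of the 10 genes in each of the 26 LE libraries (log axis, 0.05 added), by day and genotype, with a line at the group median. Il36b at D0.5 lies between 17.6 and 57.1 CPM in controls and between 0.478 and 2.05 CPM in knockouts, and Il1a, Il1b, Il1rn, Il1r2, Il36a and Il36g have far lower medians at D3.5 than at D0.5 in both genotypes.

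The 2 interleukin 1 agonists moved apart at D0.5. Il1a, which is active as it is made and is stored in epithelial cells, ranged over 9 control LE libraries from 30.1 to 280 CPM with a median of 113. In 7 knockout libraries it ranged from 10.9 to 103 CPM with a median of 29.3. Its mean fell from 140 ± 95.3 (SD, n = 9) to 37.8 ± 30.5 CPM (SD, n = 7), with a log2 fold change of -1.89 ± 0.47 (SE) and an adjusted p of 0.0041. The ranges overlapped, and knockout 24, at 103 CPM, was the only knockout library above 42 CPM. Il1b, which needs cleavage to become active, ranged from 0.202 to 194 CPM (median 23.9) in controls and from 146 to 960 CPM (median 293) in knockouts. The rise of 2.90 ± 0.75 (SE) on the log2 scale, 7.45-fold, had an adjusted p of 0.0052. A single control, mouse 2 at 194 CPM, lay inside the knockout range. Controls themselves spread widely for Il1b: mice 7 and 1 held 0.202 and 1.91 CPM and the other 7 held at least 13.7 CPM. Mouse 1 was also the lowest control in U (8.63 CPM) and DU (12.8 CPM).

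In the tissue pieces of D0.5 Il1b was also higher in knockouts, while Il1a did not pass the test. In U at D0.5 the 4 knockouts held 326, 330, 382 and 788 CPM of Il1b, and the 6 controls 8.63 to 166 CPM with a median of 54.1. Il1b was 6.04-fold higher (log2 fold change 2.60 ± 0.58, adjusted p = 0.011), and the genotypes did not overlap. In DU the knockouts held 212, 287 and 468 CPM and the controls 12.8, 43.7, 51.0 and 108 CPM, 6.00-fold higher (adjusted p = 0.0074). These tests called 3 of the 10 genes in U, where 4.98% of 16232 genes were called, and 2 in DU, where 8.06% of 16194 were. The adjusted p of Il1b in U was 0.057 without knockout 25, and with only the groups compared in the fit it was 0.054 in U and in DU. Il1a had log2 fold changes of -1.18 ± 0.51 in U (adjusted p = 0.24) and -1.35 ± 0.57 in DU (adjusted p = 0.17). Its U levels were 24.7 to 166 CPM (median 43.2) in controls and 9.27, 20.5, 39.5 and 55.2 CPM in knockouts.

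Both agonists were nearly lost by D3.5 in either genotype. In control LE, Il1a was at 0.349, 0.599, 0.734 and 0.987 CPM, a log2 change from D0.5 of -7.75 ± 0.86 (adjusted p = 4e-08), and in the 6 knockout libraries it was at 0.153 to 1.69 CPM (-5.38 ± 0.64, adjusted p = 1.6e-07). Il1b was at 0, 0.349, 0.379 and 1.10 CPM in control LE, a log2 change of -6.85 ± 1.36 (adjusted p = 0.00018; -7.07 ± 4.54, adjusted p = 0.23, with voom weights); the control libraries of the 2 days overlapped, through mouse 7 at D0.5. Knockout LE libraries held 0.204 to 3.71 CPM of Il1b at D3.5 (-8.45 ± 1.16, adjusted p = 1.6e-06), and no knockout library of one day reached the level of the other, as for 21.5% of all genes. Over the family, 7 of the 10 genes were lower and 1 was higher at D3.5 in control LE, where 44% of all genes were called, with 22.8% lower and 21.2% higher. In knockout LE 6 were lower and 1 higher, where 41.6% were called, with 20.2% lower and 21.4% higher. The median log2 change of the 10 genes was -6.46 in controls and -5.66 in knockouts, against 0.00 and 0.04 over all genes. The differences between genotypes at D3.5 did not pass the test for Il1a (0.48 ± 0.76) or Il1b (1.29 ± 1.28) in LE, at totals of 37 and 144 counts of Il1b over the control and knockout libraries.

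Both brakes on interleukin 1 rose with Il1b in knockout LE at D0.5. Il1rn, the receptor antagonist, ranged from 2.29 to 74.0 CPM (median 23.5) in controls and from 71.2 to 167 CPM (median 122) in knockouts. It was 4.70-fold higher (log2 fold change 2.23 ± 0.49, adjusted p = 0.0012), and only control 2, at 74.0 CPM, reached the knockout range. Il1r2, the decoy receptor, ranged from 0.155 to 22.2 CPM (median 5.35) in controls and from 38.9 to 163 CPM (median 72.8) in knockouts, with no overlap. Its 9.01-fold rise (3.17 ± 0.74, adjusted p = 0.0022) was the largest upward change among the 10 genes in this comparison. In U, Il1r2 was at 65.2, 75.5, 85.5 and 91.9 CPM in knockouts and 2.75 to 43.0 CPM (median 23.6) in controls, 3.28-fold higher (1.71 ± 0.47, adjusted p = 0.039). This call was lost on leaving out control 2, 3, 5 or 8 or knockout 25, 26 or 27, one at a time (adjusted p from 0.052 to 0.11). In DU the rise of 1.55 ± 0.59 did not pass (adjusted p = 0.12), though knockouts (52.2, 66.8 and 93.9 CPM) lay above all 4 controls (3.53 to 37.4 CPM). Il1rn in U was at 54.9, 64.3, 95.9 and 101 CPM in knockouts and 1.98 to 78.4 CPM (median 47.3) in controls, which overlapped (0.76 ± 0.51, adjusted p = 0.55).

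The TPM ratio of Il1b to its antagonist Il1rn, a comparison per length, had a median of 2.00 over control LE libraries at D0.5 (0.133 to 4.29) and 3.32 over knockouts (2.34 to 6.33), with overlap. In U the medians were 2.07 (0.743 to 7.64) and 5.92 (4.62 to 10.6), and in DU 1.46 and 5.55. At D3.5, over libraries with at least 10 counts of both genes, the median ratio was 0.491 in U controls (0.385 to 1.84), 0.309 in U libraries labelled knockout (0.172 to 0.516), 0.347 in DU controls (0.182 to 0.380) and 1.23 in LE knockouts (0.261 to 1.98). Il1b outnumbered Il1rn in the median of each D0.5 group, while at D3.5 the groups with a ratio lay on both sides of 1, U controls and LE knockouts within a single group.

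Il1r1, the signalling receptor, was lower in knockout LE, as Il1a was, while Il1b was higher. At D0.5 control LE libraries held 39.5 to 81.3 CPM (median 49.7) and knockouts 17.0 to 38.9 CPM (median 24.5), with no overlap. It was 2.07-fold lower (log2 fold change -1.05 ± 0.19, adjusted p = 0.00017). In U the knockouts held 52.0, 52.9, 55.4 and 119 CPM and the controls 40.3 to 64.5 CPM (median 50.6), a change of 0.43 ± 0.28 (adjusted p = 0.54). The knockout effect on Il1r1 differed between LE and U at D0.5 by -1.47 ± 0.32 on the log2 scale (adjusted p = 0.004), the only one of the 10 genes called in that test, which called 2.53% of 17057 genes. The difference was -1.68 ± 0.23 with the mouse as a block (adjusted p = 0.0009), and its call was lost without knockout 27 in U (-1.09 ± 0.32, adjusted p = 0.056) and on log2(TPM + 1) (-1.23 ± 0.37, adjusted p = 0.068). Unlike Il1a and Il1b, Il1r1 was higher at D3.5 than at D0.5 in LE. Controls held 52.7, 71.1, 96.0 and 114 CPM at D3.5 (0.67 ± 0.21, adjusted p = 0.012; 0.49 ± 0.23, adjusted p = 0.094, without control 16), and knockouts 47.8 to 88.7 CPM with a median of 65.7 (1.39 ± 0.21, adjusted p = 4.8e-06). In U and DU Il1r1 did not pass the test between days in either genotype (log2 changes from -0.57 to 0.38). In DU at D3.5 the knockouts (52.0, 53.2 and 59.5 CPM) lay below the controls (65.8, 82.0 and 85.0 CPM), as for 18.9% of all genes, with a change of -0.50 ± 0.25 that did not pass (adjusted p = 0.66).

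Il1rn and Il1r2 also fell by D3.5. In control LE Il1rn was at 0.262, 0.321, 0.415 and 0.455 CPM (log2 change -6.10 ± 0.89, adjusted p = 3.2e-06), and Il1r2 was at 0 in 3 libraries and at 0.262 CPM in mouse 11 (-6.83 ± 1.51, adjusted p = 0.00056; -7.12 ± 3.61, adjusted p = 0.12, with voom weights). In the tissue pieces more of both transcripts was found at D3.5: Il1r2 averaged 2.65 ± 1.95 CPM (SD, n = 5) in U controls, and Il1rn was at 2.32 to 3.48 CPM in the 5 U controls and 2.29 to 6.53 CPM in the 5 U libraries labelled knockout. In knockout LE at D3.5, Il1rn was at 0.670 to 5.46 CPM (median 0.98) and every knockout library lay above the 4 controls, as for 10% of all genes. The change of 2.39 ± 0.86 had an adjusted p of 0.065, and of 1.33 ± 0.91 (adjusted p = 0.45) without knockouts 35, 36 and 37, which earlier results of these data set apart in cell cycle genes. Of 9 alternatives 7 also gave no call, while it passed by DESeq2 and on log2(TPM + 0.1). The 4 control libraries held 28 counts of Il1rn in all, so this separation lies near the floor.

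Markers of neutrophils moved with Il1b, Il1rn and Il1r2. At D0.5 in LE, 7 of the 8 neutrophil markers tested were higher in knockouts (S100a8 4.70 ± 0.75 and S100a9 3.90 ± 0.76 on the log2 scale), 1 was lower (Ly6g), and 2 of the list's 10, Camp and Mpo, were not tested. The summed level was 18.9 to 405 CPM in controls and 936 to 3478 CPM in knockouts, with 0 to 2 of 10 markers at 0 in a library. In U at D0.5 the sums were 79.0 to 960 CPM in controls and 1579 to 3041 CPM in knockouts. Across the 9 control LE libraries of D0.5 the log2 levels followed the log2 neutrophil sum with Pearson's r of 0.936 for Il1b, 0.962 for Il1rn and 0.946 for Il1r2 (Spearman's rho 0.933, 0.950 and 0.933; exact permutation p of r from 7.7e-05 to 0.00044, at most 0.0013 after Benjamini-Hochberg adjustment over 9 relations). Without the 2 libraries farthest from the median, r was 0.850 to 0.917. The r of other genes and marker sums was also computed, and the adjustment covers the 9 relations, not their choice. Across the 7 knockout libraries r was 0.928 for Il1r2 (rho 0.893, exact permutation p = 0.006 and 0.012, adjusted 0.013 and 0.028; r = 0.730 without 2 libraries), 0.274 for Il1b (rho 0.357) and 0.0897 for Il1rn (rho 0.25). Mice 7 and 1, with the lowest Il1b and Il1rn among controls, had the lowest sums, and mouse 2, with the highest, had the highest sum. The part of neutrophil RNA in these 3 differences was not tested. Of 10 macrophage and monocyte markers, 5 were also higher in knockout LE at D0.5 and 1, Cd68, was lower; their summed level, of which Cd68 is the larger part in controls, was 212 to 448 CPM in controls and 125 to 168 CPM in knockouts.

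**Figure D2:**
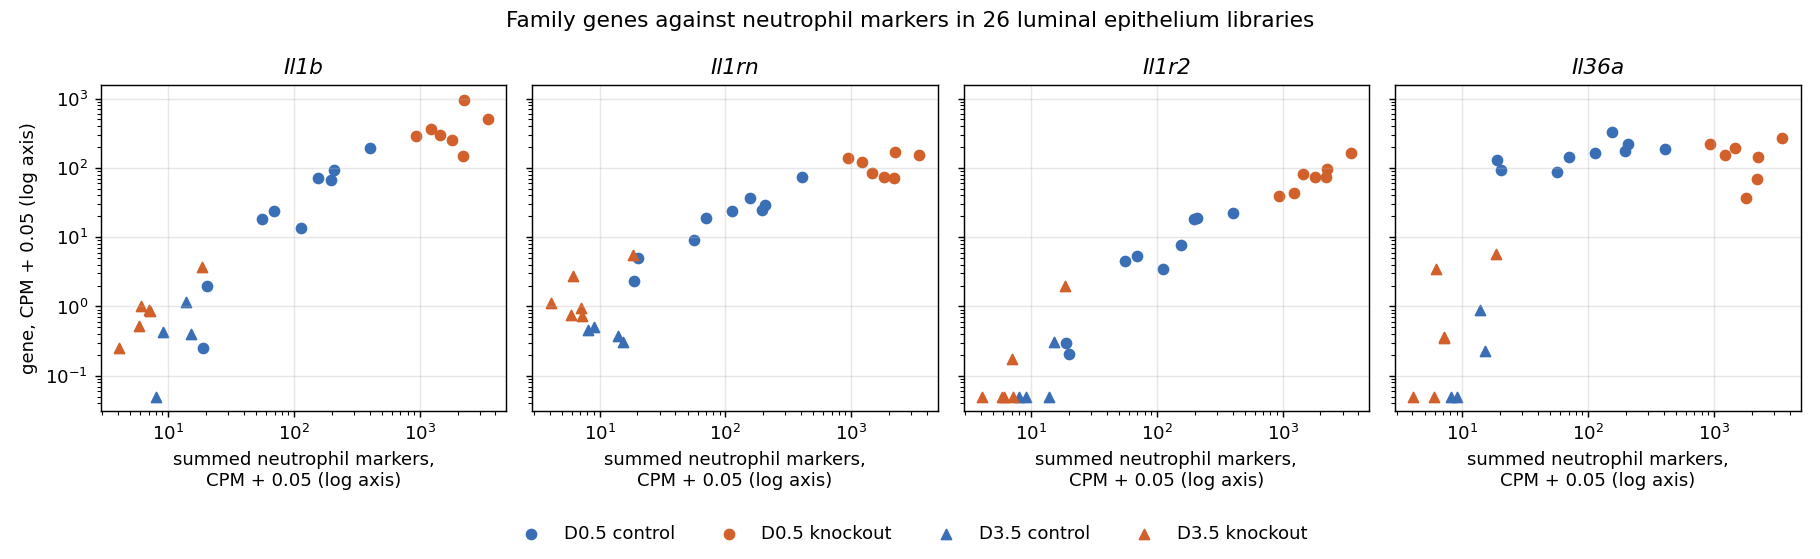
CPM of Il1b, Il1rn, Il1r2 and Il36a (log axis, 0.05 added) against the summed CPM of 10 neutrophil markers (log axis) in 26 LE libraries, coloured by genotype and shaped by day. The D0.5 controls lie between 18.9 and 405 CPM of markers and the D0.5 knockouts between 936 and 3478; Il36a overlaps between them while the other 3 genes are higher in knockouts.

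Among the 3 interleukin 36 genes, which lie side by side, only Il36b passed the test between genotypes, in LE on both days and in U and DU at D0.5. Il36b ranged from 17.6 to 57.1 CPM (median 34.9) over 9 control LE libraries at D0.5 and from 0.478 to 2.05 CPM (median 1.84) over 7 knockouts. It was 23.1-fold lower, with a log2 fold change of -4.53 ± 0.35 and an adjusted p of 1.2e-09, and the lowest control was far above the highest knockout. The same was seen in U, where the knockouts held 0.561, 0.849, 0.874 and 1.28 CPM and the controls 12.0 to 20.8 CPM (median 15.2), a change of -4.11 ± 0.56 (adjusted p = 0.00017). In DU the knockouts held 0.519, 0.931 and 1.70 CPM and the controls 11.0, 13.4, 17.7 and 18.5 CPM (-3.84 ± 0.42, adjusted p = 0.00028). Non-overlap was seen for 4.56% of genes in U and 17.7% in DU. The effect in LE and in U differed by -0.43 ± 0.54, which did not pass the test (adjusted p = 0.88). Simple epithelium markers were lower in knockout LE at D0.5, where 5 of 8 passed and the sum was 3042 to 5302 CPM against 6532 to 12980 CPM. Summed gland markers were higher there (1.23 to 24.0 CPM in controls, 31.4 to 117 CPM in knockouts). Of these 6 markers, 2 to 5 were at 0 in a control library and 0 to 3 in a knockout library. The part of either in the fall of Il36b was not tested.

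Il36a, the most abundant ligand of control LE per length at D0.5, was at 88.5 to 328 CPM (median 164) in controls and 36.8 to 266 CPM (median 153) in knockouts at D0.5, a change of -0.13 ± 0.58 (adjusted p = 0.9). Il36g was at 39.9 to 96.2 CPM (median 62.0) in controls and 51.6 to 124 CPM (median 76.3) in knockouts, a change of 0.26 ± 0.29 (adjusted p = 0.58). The genotypes overlapped broadly for both, and a p that misses the threshold does not show equal levels. In U, Il36g had a change of 0.86 ± 0.45 and Il36a of -0.71 ± 0.62, and in DU of 1.01 ± 0.40 and 0.03 ± 0.57; none passed.

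**Figure D3:**
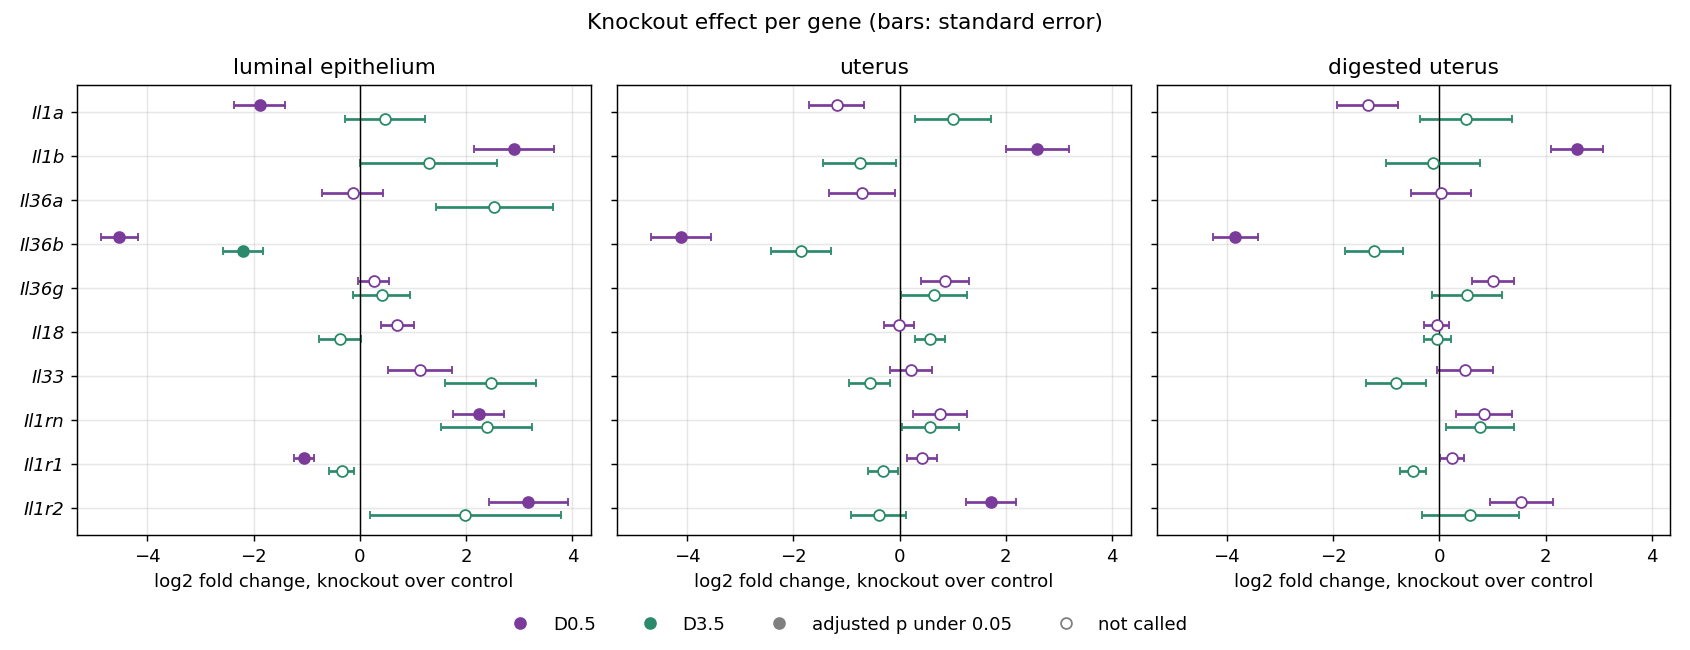
Log2 fold change of knockout over control for each gene in LE, U and DU at D0.5 and D3.5, with bars of 1 standard error and filled points for an adjusted p under 0.05; Il36a at D3.5 is left out in U and DU, where its controls were at 0. Il36b has the lowest point at D0.5 in each tissue (-4.53, -4.11 and -3.84), and Il1b is higher in each (2.90, 2.60 and 2.59).

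The day changed all 3 interleukin 36 genes in controls. In control LE at D3.5, Il36a was at 0, 0, 0.174 and 0.825 CPM (log2 change -9.27 ± 1.21, adjusted p = 6.1e-07), and Il36g at 0.218, 0.367, 0.461 and 0.987 CPM (-7.10 ± 0.55, adjusted p = 8.3e-11). Il36b fell less, to 5.14, 5.84, 6.23 and 11.0 CPM (-2.31 ± 0.39, adjusted p = 2.2e-05), and did not overlap with D0.5, as for 23.9% of all genes. In U and DU controls at D3.5, Il36a had no count in any of the 5 and 3 libraries. Against 3 counts over each group it was at least 3113-fold lower in U (D0.5 mean 83.1 CPM) and at least 1376-fold lower in DU (52.7 CPM), covering counting error only. In the same U controls Il36b was at 0.172 to 1.51 CPM, 19.5-fold lower than at D0.5 (adjusted p = 2e-06).

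In knockout LE, Il36a and Il36g fell with the day as in controls (-6.61 ± 0.86 and -6.96 ± 0.45, adjusted p = 6.4e-07 and 8e-12), while Il36b stayed low: 0.478 to 2.05 CPM at D0.5 and 0.907 to 2.86 CPM (median 1.29) at D3.5, a change of 0.02 ± 0.34 (adjusted p = 0.97). At D3.5 Il36b was still lower in knockouts than in controls, 4.57-fold (-2.19 ± 0.38, adjusted p = 0.00023), without overlap. It was the only one of the 10 genes called in LE at D3.5, where 13.5% of genes were called, and its change was -2.65 ± 0.47 (adjusted p = 0.00078) without knockouts 35, 36 and 37. The knockout effect on Il36b differed between the days by 2.34 ± 0.50 (adjusted p = 0.0018), the only call among the 10 genes in a test that called 16.5% of genes. In order of level in LE, Il36b was highest in D0.5 controls (35.1 ± 12.3 CPM, SD, n = 9), then D3.5 controls (7.06 ± 2.67, n = 4), with the D3.5 and D0.5 knockouts last (1.54 ± 0.746, n = 6, and 1.53 ± 0.651, n = 7), which did not differ beyond their spread. In U and DU the same difference between days was 2.25 ± 0.77 (adjusted p = 0.19) and 2.61 ± 0.71 (adjusted p = 0.081). There Il36b also fell from D0.5 to D3.5 in knockouts (-2.03 ± 0.57 and -2.57 ± 0.52, adjusted p = 0.012 and 0.0022), to 0 to 0.436 CPM in U; without knockout 25 the change in U was -1.77 ± 0.63 (adjusted p = 0.053).

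**Figure D4:**
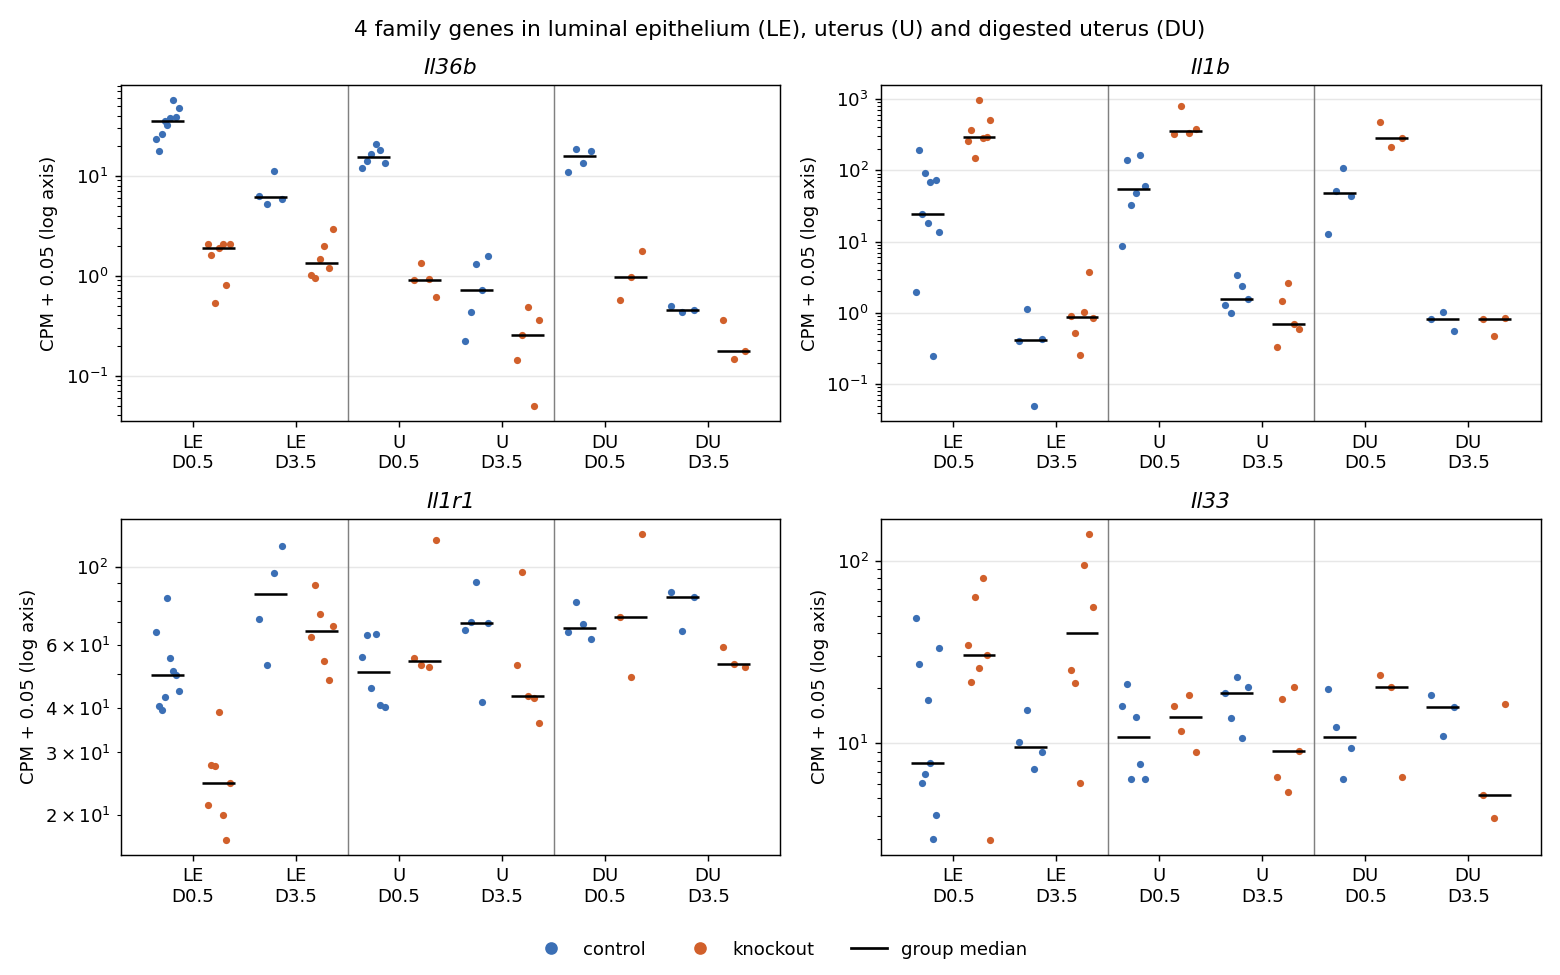
CPM (log axis, 0.05 added) of Il36b, Il1b, Il1r1 and Il33 in each of the 59 libraries by tissue, day and genotype, with a line at the group median. Il36b separates the genotypes at D0.5 in the 3 tissues, Il1r1 at D0.5 in LE only among the 3 tissues, and Il33 at D3.5 spreads over 6.01 to 140 CPM in knockout LE.

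Il18 and Il33, the ligands with receptors of their own, passed the test in few comparisons. Il18, which is made constitutively by many epithelia, was at 2.29 to 9.93 CPM (median 5.93) in control LE and 5.61 to 14.7 CPM (median 8.34) in knockout LE at D0.5 (0.70 ± 0.31, adjusted p = 0.1), and passed with voom weights (0.98 ± 0.26, adjusted p = 0.0045). At D3.5 it was at 4.56, 5.24, 10.2 and 15.6 CPM in controls and 3.21 to 9.73 CPM (median 6.84) in knockouts. Its 12 group means lay between 4.27 and 8.93 CPM, and it was called between days in 1 comparison, U controls (-0.83 ± 0.27, adjusted p = 0.022), a call lost without control 9, 11 or 12 (adjusted p from 0.055 to 0.059).

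Il33, a nuclear alarm cytokine, was at 2.93 to 48.3 CPM (median 7.75) in control LE and 2.93 to 80.4 CPM (median 30.5) in knockout LE at D0.5, with overlap (1.13 ± 0.60, adjusted p = 0.19). It passed with voom weights (adjusted p = 0.039), and 7 of 8 alternatives gave no call. At D3.5 the 4 control LE libraries held 7.19, 8.88, 10.1 and 15.3 CPM, and the knockouts 6.01 in mouse 34, 21.4 in 32, 25.3 in 31, 55.5 in 37, 94.7 in 35 and 140 CPM in 36. Of 6 knockouts 5 lay above every control, and the change of 2.46 ± 0.85 had an adjusted p of 0.055; it was 0.80 ± 0.85 (adjusted p = 0.66) without knockouts 35, 36 and 37, and passed by DESeq2 (adjusted p = 0.016) and on log2(TPM + 1) (0.025). In U at D3.5, controls held 10.6, 13.8, 18.9, 20.2 and 23.1 CPM and libraries labelled knockout 5.37, 6.47, 9.06, 17.5 and 20.4 CPM (-0.56 ± 0.39, adjusted p = 1). The knockout effect on Il33 differed between LE and U at D3.5 by 3.05 ± 0.93 (adjusted p = 0.04), the only call of the 10 genes where 5.26% of genes were called. It was 3.23 ± 0.97 (adjusted p = 0.039) without the library labelled knockout 33, and 2.24 ± 0.89 (adjusted p = 0.26) with the mouse as a block. The call was also lost on leaving out control 11, 15 or 16 or knockout 35 or 36 of LE, or control 11, 13 or 16 or knockout 32, 34 or 37 of U, one at a time.

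The summed level of stratified epithelium markers moved with Il33 among the 6 knockout LE libraries of D3.5. It was 10.7, 19.9, 36.1 and 85.6 CPM in controls and 57.8 (mouse 32), 65.7 (31), 66.8 (34), 273 (37), 594 (35) and 724 CPM (36) in knockouts. Of the 10 markers 2 were called higher (Krt1 and Lor), where 13.5% of all genes were called in either direction. That count is near this share, so it is no result about the list. In a library 1 to 5 of 10 markers were at 0. Over the 6 knockouts Pearson's r between the log2 values was 0.889 and rho 0.829 (exact permutation p = 0.017 and 0.058, adjusted over the 9 relations 0.03 and 0.088), and r was 0.684 without 2 libraries. At D0.5 r was 0.642 over 9 controls (exact permutation p = 0.038) and 0.668 over 7 knockouts (p = 0.092), and -0.395 in the latter without 2 libraries. Here too the adjustment does not cover the choice of the 9 relations. The part of stratified epithelium in the Il33 values was not tested. The horns were scraped while joined at the cervix, and whether this bears on these values was not tested. Mouse 36 was also the highest of its group for 7 of the 10 genes in LE at D3.5, with Il36a at 5.68, Il36g at 1.97, Il1b at 3.71 and Il1r2 at 1.91 CPM.

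In U at D3.5, none of the 10 genes passed between genotypes with edgeR, where 0.0185% of genes were called, and none passed without the library labelled knockout 33. At an unadjusted p under 0.05, 1 of the 10 passed. With voom weights 3 passed after adjustment, where 1145 genes were called in all in place of 3. The smallest p was that of Il36b (-1.85 ± 0.56, adjusted p = 0.47; -1.84 ± 0.61, adjusted p = 0.35, without 33), from 0.172 to 1.51 CPM in controls to 0 to 0.436 CPM. In that group Il1r1 was at 36.3, 42.5, 43.2 and 52.9 CPM in 4 libraries and at 96.7 CPM in the library labelled knockout 33; its change was -0.31 ± 0.28 with it and -0.63 ± 0.25 without it. In DU at D3.5 none passed with edgeR either (0.574% called), and 1, Il36b, had an unadjusted p under 0.05. The knockout effect did not pass for any gene as a difference between days in U (1.43% called) or DU (1.88% called), where that of Il1b was -3.34 ± 0.90 (adjusted p = 0.073) and -2.70 ± 1.01 (adjusted p = 0.21). At an unadjusted p under 0.05, 5 of the 10 genes passed that test in U and 3 in DU, and DESeq2 called 2 and 1. In DU, DESeq2 called 888 genes in all in place of 304. Shares of all genes at an unadjusted p are not given here, so those counts are no result about the 10 genes as a set. Between days, 8 of the 10 genes were lower in U controls (34.2% of all genes called, 18% lower), 7 in U knockouts (25.5% called, 14.6% lower), 7 in DU controls (34.4% called, 18.5% lower) and 7 in DU knockouts (30.2% called, 17.3% lower), and none was higher. In these 4 comparisons Il1r1 and Il33 did not pass.

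Averaged over the 4 day and genotype groups, LE differed from U in 8 of the 10 genes, where 67% of all genes were called. Il36b was 4.85-fold higher in LE (log2 2.28 ± 0.22, adjusted p = 1.6e-13), with smaller rises of Il33 (1.20 ± 0.31), Il1a (1.00 ± 0.33), Il36g (0.65 ± 0.25) and Il18 (0.54 ± 0.16), at adjusted p of 0.00061, 0.0067, 0.021 and 0.0023. Il36a was also called higher in LE, and its fold is not given because U controls of D3.5 were at 0; at D0.5 control means were 170 CPM in LE and 83.1 CPM in U. Il1r2 (-1.96 ± 0.47, adjusted p = 0.00025) and Il1rn (-0.84 ± 0.31, adjusted p = 0.016) were lower in LE than in the whole tissue. On log2(TPM + 0.1) the differences of Il33 (0.66 ± 0.34), Il1a (0.59 ± 0.28), Il36g (0.43 ± 0.24) and Il18 (0.14 ± 0.15) did not pass (adjusted p from 0.059 to 0.41), and with voom weights those of Il1a, Il36g and Il1rn did not (0.19 to 0.23). With the mouse as a block over 17 mice, Il18 was lost (0.37 ± 0.20, adjusted p = 0.11) and Il1r2 stood at -3.48 ± 0.53. The dispase digestion itself was examined by DU against U. Without the mouse as a block, none of the 10 genes passed with edgeR, where 1 of 17057 genes, 0.00586%, was called. None had an unadjusted p under 0.05. That fit ignored that pieces came from the same mice, so it does not show that digestion left these genes unchanged. With the mouse as a block over 13 mice, 7082 genes were called in all, and 4 of the 10 genes were among them. Calls were common in that fit, so this count is no result about the 10 genes as a set. Il1b (-0.67 ± 0.21, adjusted p = 0.019), Il1r2 (-0.79 ± 0.19, adjusted p = 0.0063) and Il18 (-0.37 ± 0.12, adjusted p = 0.023) were lower in DU, and Il1r1 (0.29 ± 0.06, adjusted p = 0.0044) was higher.

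Per length, the make-up of the 7 ligands turned over between days and genotypes. In control LE at D0.5, Il36a held on average 54.5% of the summed ligand TPM, Il1a 15.2% and Il1b 8.05%. In knockout LE Il1b held 48.1% and Il36a 34.3%, and Il36b held 0.244%. The summed ligand TPM overlapped between genotypes at D0.5 (299 to 836 in controls, 413 to 1457 in knockouts). At D3.5 it was 20.5 to 52.8 TPM in controls and 14.4 to 133 TPM in knockouts. There Il18 and Il36b made up 50.4% and 28.0% of it in controls, and Il33 made up 51.8% in knockouts. These shares describe transcripts; Il1b, Il18 and other members are also controlled by cleavage and release, which were not measured.

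**Figure D5:**
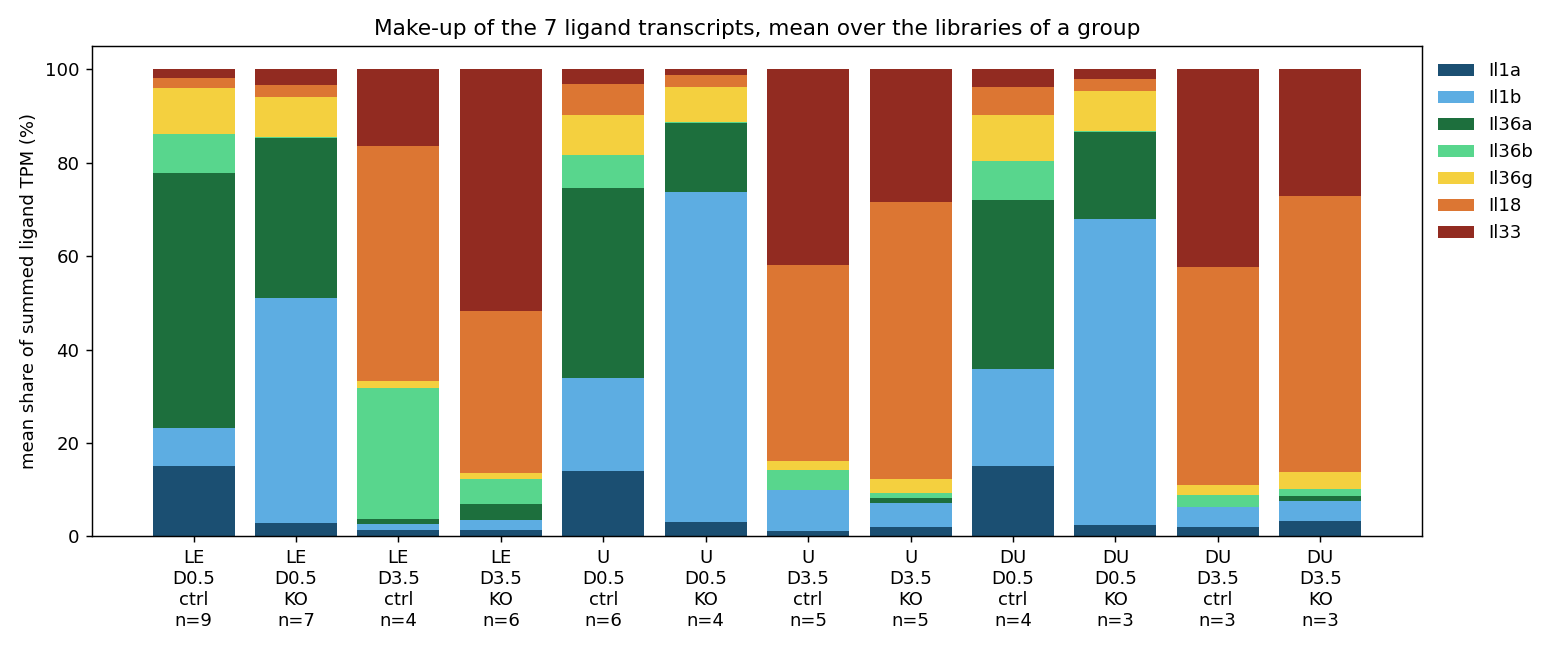
Mean share of the summed TPM of the 7 ligands in each of the 12 groups of tissue, day and genotype, in percent, stacked to 100%. At D0.5 the share of Il1b in LE is 8.05% in controls and 48.1% in knockouts, and at D3.5 Il18 and Il33 take most of every bar, with Il36b at 28.0% in LE controls.

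Receptors of the pathway changed as well in LE at D0.5, where 23.6% of all genes were called. Of 7 receptor chains tested, 3 were higher in knockouts and 1 was lower: Il1rap, the shared accessory chain, rose from 13.9 ± 5.74 (SD, n = 9) to 50.3 ± 16.0 CPM (n = 7; 1.85 ± 0.24, adjusted p = 3e-06), and Il18r1 (0.99 ± 0.18) and Il18rap (1.31 ± 0.46), the chains of the interleukin 18 receptor, rose at adjusted p of 0.00022 and 0.04. Il1rl2, the interleukin 36 receptor, was lower at D0.5 (30.9 ± 5.59 to 19.8 ± 6.31 CPM, -0.64 ± 0.22, adjusted p = 0.036) and higher at D3.5 (4.89 ± 1.30 to 12.1 ± 4.99 CPM, 1.30 ± 0.30, adjusted p = 0.0039). At D3.5 Il18r1 was higher (0.89 ± 0.24, adjusted p = 0.014) and Sigirr, an inhibitory receptor, lower (-0.64 ± 0.20, adjusted p = 0.03). Of 2 other ligands and antagonists tested, Il36rn and Il18bp, neither passed between genotypes in LE on either day.

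Among 19 adapters and kinases, 5 were higher (Irak2, Irak3, Myd88, Nfkb1 and Rel) and 2 lower (Ikbkg and Irak4) in knockout LE at D0.5, where 23.6% of all genes were called. At D3.5, 1 was higher (Irak2) and 2 were lower (Myd88 and Rel), a share close to the 13.5% of all genes called. Myd88, the adapter of these receptors, ran against the ligands with the day: in control LE it rose from 64.0 ± 18.5 (n = 9) to 1102 ± 222 CPM (n = 4; 4.11 ± 0.23, adjusted p = 2.5e-13), and at D3.5 it was lower in knockouts (215 ± 67.2 CPM, n = 6; -2.36 ± 0.26, adjusted p = 5.2e-07). Of 14 genes of processing and release tested at D0.5, 4 were higher (Casp4, Gsdme, Ninj1 and Nlrp3) and 3 lower (Casp8, Nlrc4 and Pycard). Nlrp3, a sensor upstream of caspase cleavage of Il1b, had a log2 fold change of 2.88 ± 0.74 (adjusted p = 0.0051), Nlrc4, another sensor, had a change of -2.27 ± 0.25 (adjusted p = 3.4e-07), and the cleaving enzyme Casp1 one of 0.14 ± 0.19 (adjusted p = 0.68). Of 20 genes known to respond to interleukin 1, 5 were higher and none lower at D0.5, a share close to the 23.6% of all genes called: Icam1 (2.62 ± 0.46), the chemokines Ccl20 (4.17 ± 0.88), Cxcl2 (2.59 ± 0.62) and Cxcl5 (3.45 ± 0.90), with adjusted p from 0.00012 to 0.0057, and Cxcl1 (1.91 ± 0.65, adjusted p = 0.033). Lcn2, Lif and Ptgs2 did not pass. The same list fell with the day beside the ligands, 18 of 20 lower in control LE and 19 of 20 in knockout LE, where 22.8% and 20.2% of all genes were lower. At D3.5, 1 was higher in knockouts (Zc3h12a) and 3 were lower (Nfkbia, Nfkbiz and Saa3). The medians of the 4 lists between genotypes at D0.5, in the order given, were 0.73, 0.21, 0.06 and 0.41, against -0.01 over all genes.

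The genes most like each member over the 26 LE libraries, by Pearson's r of log2 CPM, are given as a description; the libraries span both days and genotypes, so r contains the fall with the day. Nearest to Il1b, Il1rn and Il1r2 were the neutrophil genes S100a8 and S100a9 and Trem1, with r from 0.962 to 0.980, and Osm for Il1b (0.969). Il36a was nearest to Zc3h12a (0.976), Steap1 (0.975) and Tnip3 (0.973), Il36g to Slc26a4 (0.985), Gch1 (0.983) and Il13ra1 (0.980), and Il1a to Slc5a8 (0.966). Il36b had other neighbours, Scamp5 (0.946), Ly6f (0.936) and Alpl (0.919), and its r with Il36a and Il36g was 0.341 and 0.341, while those 2 had an r of 0.938 with each other. The r of Il33 did not pass 0.854 (Trim29) with any tested gene, that of Il18 0.859 (Depdc7) and that of Il1r1 0.891 (Inpp5f).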

How the data were processed

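RNA of LE, U and DU was sequenced from libraries of a kit that does not mark strand, per the labels' protocols. Reads were quantified with kallisto 0.46.1 on GRCm39, per the submitters' processing notes; the summing of transcripts to genes is not stated. The authors deposited estimated counts per gene, which are not normalized, and TPM, which is scaled for length and depth. Estimated counts were rounded, filtered (filterByExpr, minimum count 10, total 15), scaled by TMM and tested with edgeR 4.0.16 in R 4.3.3 by the quasi-likelihood test, with Benjamini-Hochberg adjustment over all genes tested and a threshold of 0.05. Each tissue was fitted with its 4 groups, and tissues were compared in a fit of all 12. Standard errors were derived from each log2 fold change and the test's F. Logs of CPM use an offset of 0.05.

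The 10 genes and all lists were chosen with earlier results of these data known. All 10 genes were named in each comparison, with Esr1, called genes of the pathway lists (at most 3 per list by adjusted p, and others named after their values were seen), and for each of the 10 the 3 most correlated genes. Alternatives were DESeq2 1.42.0, limma 3.58.1 (voom, and log2(TPM + 1) or log2(TPM + 0.1) of the authors' TPM), other scaling and filters, and leaving libraries out.

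A number shared by libraries of different tissues marks 1 mouse. Deviations from group means correlated between tissues of a mouse with medians of 0.241 for LE and U (17 mice), 0.310 for U and DU (13) and 0.132 for LE and DU (13). Within a group no mouse gave more than 1 library. The test was checked on simulated counts: for LE at D0.5, over 15601 genes, it recovered 52% of 2-fold and 78% of 4-fold changes. For LE at D3.5 it recovered 27% and 66%, for U at D0.5 45% and 77%, and for DU at D0.5 61% and 84%. No pair of libraries looked like a duplicate (lowest chi-square per degree of freedom 9.76 over 134 pairs).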

Additional observations from a re-analysis of the deposited data

Results flagged for a closer look

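In groups of 4 to 10 libraries, the highest library lay apart from the others by Dixon's test on CPM in 12 of 90 combinations of gene and group. Its cut-offs assume a normal spread, which CPM need not have, and the genes share libraries. No rate expected by chance is therefore given. In LE at D0.5, Il1b was at 194 CPM in control 2 (0.202 to 92.0 in the others), Il1rn at 74.0 CPM in control 2 (2.29 to 36.2), and Il1a at 103 CPM in knockout 24 (10.9 to 41.9). In LE at D3.5, knockout 36 stood apart for Il1b at 3.71 CPM (0.204 to 0.967), Il1r2 at 1.91 CPM (0 to 0.127) and Il36g at 1.97 CPM (0.0848 to 0.509), and control 11 was the only control with Il1r2, at 0.262 CPM.

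In U at D0.5, Il1b was at 788 CPM in knockout 25 (326 to 382 in the others) and Il1r1 at 119 CPM in knockout 27 (52.0 to 55.4). In U at D3.5, Il1r1 was at 96.7 CPM in the library labelled knockout 33 (36.3 to 52.9), and Il1r2 at 6.04 CPM in control 13 (1.29 to 2.37) and 3.27 CPM in knockout 34 (1.43 to 1.87).

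The knockout effect differed between 2 settings, by a test of the difference itself, for 3 genes. For Il36b in LE the effect at D3.5 minus that at D0.5 was 2.34 on the log2 scale (adjusted p = 0.0018), for Il1r1 the effect in LE minus that in U at D0.5 was -1.47 (adjusted p = 0.004), and for Il33 the same difference at D3.5 was 3.05 (adjusted p = 0.04).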

How the results depend on the processing

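Of 190 results for single genes, 67 passed the test; 52 of these passed in the same direction under every alternative run, 15 lost the call under at least 1, and none reversed. Of 123 that did not pass, 22 passed somewhere. The number of the 10 genes called moved by more than 1.5 times, or to or from 0, as follows, and the cause was not tested. Smaller moves, such as 8 in place of 6 in LE at D0.5 with voom weights, are not listed. Counts over all genes moved with the settings too, from 1131 to 4104 in LE at D3.5 and from 1814 to 3389 for the difference between days in LE. Shares over all genes are not given per setting, so these numbers are no result about the 10 genes as a set. With only the groups compared in the fit, the number of the 10 genes called was 1 in place of 2 in DU at D0.5, 1 in place of 3 in U at D0.5, and 2 in place of 1 in LE at D3.5. With DESeq2 it was 3 in place of 1 in LE at D3.5, 2 in place of 1 for the difference between days in LE, and 2 and 1 in place of 0 in U and DU. On log2(TPM + 0.1), log2(TPM + 1) and log2(TPM + 1) without a filter it was 3, 2 and 2 in LE at D3.5, 4, 5 and 4 for the difference between days in LE, 1, 2 and 2 for that in U, 1 each in DU, and 4, 5 and 4 in place of 8 for LE against U. On these 3 scales it was 0 in place of 1 for the difference between LE and U at D0.5. That at D3.5 gave 0 on log2(TPM + 0.1), on log2(TPM + 1) without a filter, without a filter on low counts and with the mouse as a replicate block. With voom weights it was 5 in place of 8 between days in control LE, 5 in place of 8 for LE against U, and 3 in place of 0 in U at D3.5. With the replicate block (mouse), DU against U gave 4 in place of 0, and LE against U lost Il18.

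Leaving out 1 library at a time gave 6 to 7 of the 10 genes in LE, 1 to 3 in U and 2 to 3 in DU at D0.5; 1 to 2, 0 to 0 and 0 to 0 at D3.5; 7 to 8, 7 to 8 and 7 to 7 between days in controls; 7 to 7, 6 to 7 and 7 to 8 in knockouts; and 1 to 3, 0 to 1 and 0 to 1 for the difference between days. It gave 7 to 8 for LE against U, 0 to 0 for DU against U, and 0 to 1 for the difference between LE and U on either day. Counts over all genes moved by more than 1.5 times in several comparisons: 2105 genes in LE at D3.5 became 1131 without knockouts 35, 36 and 37 and 4104 on log2(TPM + 1) without a filter, 3 in U at D3.5 became 112 without the library labelled knockout 33, 0 without control 11 and 1145 with voom weights, and 1 for DU against U became 7082 with the block. Other settings gave 361 to 2207 for the 809 in U at D0.5, 411 to 2147 for the 1306 in DU at D0.5, 78 to 344 for the 93 in DU at D3.5, 196 to 1006 and 211 to 888 for the differences between days in U (232) and DU (304), and 206 to 1409 and 385 to 1732 for those between LE and U at D0.5 (432) and D3.5 (898). Leaving out 1 library gave as few as 459 in U at D0.5 (without knockout 25), 608 in DU at D0.5 (control 5), 34 in DU at D3.5 (knockout 32; at most 64), 137 for the difference between days in U (D0.5 knockout 25; at most 370), 105 for that in DU (D3.5 control 16; at most 563), and 278 for LE against U at D0.5 (U knockout 26; at most 655). At D3.5 depth limits Il1a, Il1b, Il1rn, Il1r2, Il36a and Il36g in LE, where libraries held few or no counts of some of them.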
